A study of Eucalyptus grandis
Pisolithus microcarpus and Eucalyptus grandis with 23 samples.

Results

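The genes described here are those of Eucalyptus grandis, a plantation eucalypt, whose ids start with Eucgr.L, the letter given to sequence that was not placed on a chromosome. All 2459 such ids in the deposited tables were taken, which is 6.76% of the 36376 genes listed, and they were set against the 33917 genes with ids A to K, 1 letter for each of the 11 chromosomes. No expression value entered the choice. The files give no position, name or description for any gene, and 0 of the 36376 ids matched the reference table provided, so the genes are called by their ids and none is given a function.

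An unplaced scaffold is a stretch of assembled sequence that could not be anchored to the genetic map. Such sequence is often rich in repeats, holds recent gene copies, or is the second version of a region in which the parental chromosomes of the sequenced tree differ, and gene models on it are often short or cut off by the end of the scaffold. Reads from near-identical copies cannot be assigned to 1 of them with certainty, and a copy that the sequenced tree carries can be missing from another plant of the species. In an ectomycorrhiza, the joint organ studied here, fungal hyphae wrap fine roots and grow between their outer cells, where nutrients from the fungus are exchanged for sugars from the plant.

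RNA was sequenced from roots of in vitro seedlings, 1 month old when they were moved to diluted MMN medium in Petri dishes and kept there for 1 month at a constant 400 or 650 ppm CO2. Roots grew under a square of mycelium of Pisolithus microcarpus, a fungus that colonises eucalypts, or axenically as controls. There were 3 libraries of SI-9 mycorrhizal roots at 400 ppm, 3 of SI-12 mycorrhizal roots at 400 ppm, 3 of SI-9 roots at 650 ppm, 3 of SI-12 roots at 650 ppm, 5 of control roots at 650 ppm and 6 of control roots at 400 ppm, which makes 23 libraries in 6 groups. The 2 fungal strains were SI-9 and SI-12. The labels do not say how many seedlings gave RNA to a library or whether the seedlings were of 1 genotype.

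Gene reads ran from 4497662 to 30210474 per library. Of these, 106748 to 709722 fell on unplaced genes, and 3 reads of a gene correspond to 0.099 to 0.662 CPM (the reads of a gene scaled to library size with TMM factors). The labels call the libraries of a group biological replicates, but they formed 10 sets of near-identical libraries, inside which the coefficient of variation beyond counting noise was under 0.2. Control libraries 1 to 3 and 4 to 6 at 400 ppm were separate sets, as were control libraries 1 and 2 and libraries 3 to 5 at 650 ppm. The 3 SI-12 libraries at 400 ppm formed 1 set, and so did the 3 at 650 ppm. Fits on sets therefore hold 1 replicate of each SI-12 group, and 10 sets for 6 groups in all. With so few replicates, a gene that is not called there is not shown to be unchanged. A p-value here can therefore rest in part on the small variation among libraries of 1 set. Whether that variation is technical or biological was not tested. Each count of called genes is therefore also given with every set taken as 1 replicate. The library numbers in the deposited names split in the same way: controls numbered 1 to 12 and 13 to 24 form the separate sets, all SI-9 libraries are numbered 1 to 12 and all SI-12 libraries 13 to 24. What these numbers record is not stated in the labels.

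In the median, unplaced genes were shorter, and as a group less often detected and less abundant, than the genes of any chromosome. Their median length was 924 bases, against 1320 bases for ids A to K and 1218.5 to 1456 bases over the 11 chromosomes. No read in any library was found for 149 of them, which is 6.06%, against 3.71% of ids A to K and 2.46% to 4.62% by chromosome. A further 753 had reads but too few for the test, and 1557 were tested, which is 63.3%, against 76.2% of ids A to K and 72.3% to 79.8% by chromosome. At least 1 CPM in all 23 libraries was reached by 590 unplaced genes, or 24%, against 50.5% of ids A to K.

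Per length, the median unplaced gene stood at 1.0 RPKM (reads scaled to gene length and library size, the mean of the 6 group means), against 3.73 RPKM for ids A to K. Among tested genes alone the medians were 3.42 and 7.99 RPKM, and the lowest chromosome was E with 4.98 RPKM. The middle 50% of tested unplaced genes lay between 1.2 and 9.84 RPKM, against 2.16 and 22.0 RPKM for ids A to K, so the distributions overlap widely. In each library taken by itself the median over tested unplaced genes ran from 2.39 to 3.26 RPKM, against 7.39 to 7.84 RPKM for ids A to K, and it was the lower one in 23 of 23 libraries. Chromosome E lay nearest to the unplaced genes in most of these measures, with the smallest shares of genes tested and of genes on in all libraries.

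The gap in level grew with gene length. Among tested genes under 500 bases, the 200 unplaced ones had a median of 4.3 RPKM, against 3.34 RPKM for ids A to K, so the order was turned round. Between 500 and 1000 bases the medians were 3.77 RPKM for unplaced genes and 4.95 RPKM for ids A to K. Between 1000 and 1500 bases they were 3.13 and 8.53 RPKM, and from 1500 bases upward 2.71 and 10.2 RPKM. The level fell with length among unplaced genes, whereas it increased with length among genes of the chromosomes. These are descriptions over genes, which are not replicates, and carry no test.

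**Figure D1:**
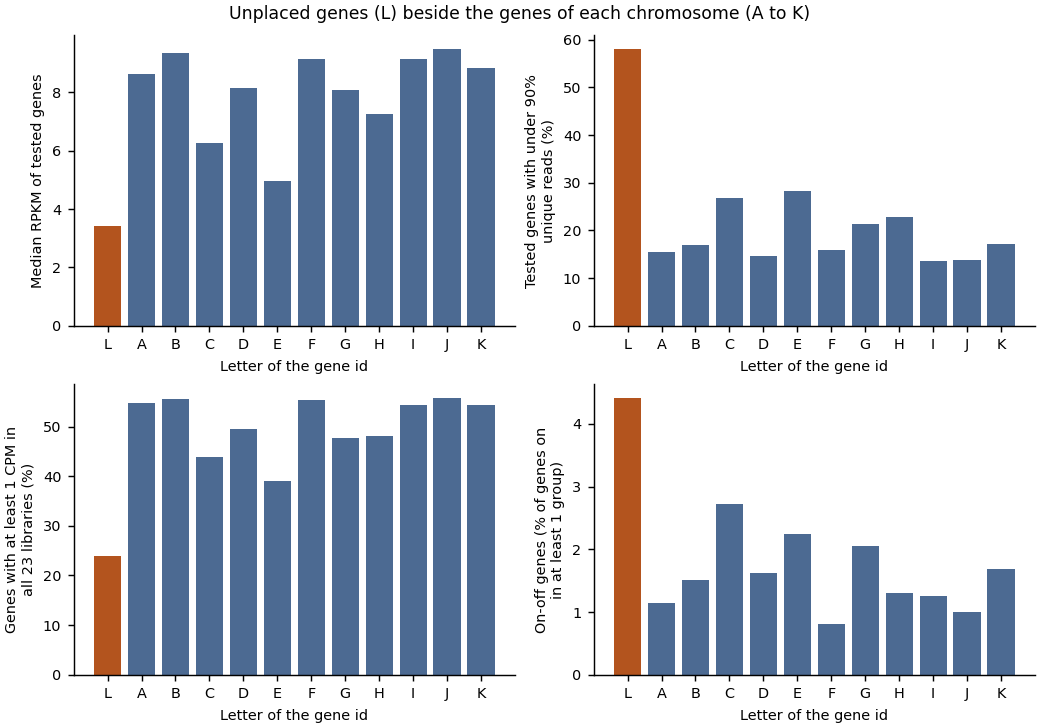
Bars give, for ids L and for each chromosome letter A to K, the median RPKM of tested genes, the percentage of tested genes with under 90% unique reads, the percentage of all genes with at least 1 CPM in all 23 libraries, and the percentage of on-off genes among genes on in at least 1 group. The unplaced genes stand at 3.42 RPKM, 58.0%, 24% and 4.41%, outside the range of the 11 chromosomes in each panel.

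Reads of unplaced genes were far more often shared with another gene. The tables count unique gene reads, which match 1 gene only, beside total gene reads. Summed over all libraries, 76.9% of the reads on unplaced genes were unique, against 96.5% on ids A to K and 95.1% (chromosome E) to 98.3% (chromosome I) by chromosome. By library the unique share ran from 74.6% to 79.0% on unplaced genes, against 96.2% to 96.9% on ids A to K, and it was lower on unplaced genes in 23 of 23 libraries.

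The sharing was spread over most of the unplaced genes. Of the 1557 tested, 903 had under 90% unique reads, which is 58.0%, against 19.2% of ids A to K and 13.5% to 28.2% by chromosome. Under 50% unique reads were found for 184 of them, or 11.8%, against 3.0%, and 8 tested unplaced genes had no unique read at all. All reads were unique for only 153, or 9.83%, against 37.2% of ids A to K. The median unplaced gene had 85.1% unique reads, against 100% for the median gene of ids A to K. Counts of genes with many shared reads are uncertain, because the way in which the authors' counting split such reads is not given in the sources used here.

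The lower level was not limited to genes with shared reads. Unplaced genes whose reads were all unique had a median of 3.34 RPKM, against 7.13 RPKM for such genes of ids A to K. With 90% to under 100% unique reads the medians were 3.44 and 13 RPKM. With 50% to under 90% they were 3.85 RPKM for 719 unplaced genes and 3.46 RPKM for 4173 genes of ids A to K, so that the order was turned round in this class. Under 50% unique reads they were 2.1 RPKM for 184 unplaced genes and 2.52 RPKM for 775 genes of ids A to K, with the unplaced ones lower again.

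Unplaced genes received 2.32% of all gene reads, and a few of them took much of that. The single most read gene took 5.45% of the reads of all unplaced genes, the 3 most read took 13.3%, the 10 most read 24.2% and the 100 most read 60.5%. Among the 1000 genes with the highest mean RPKM, 25 were unplaced. The 3 at the top were Eucgr.L03200.1 with 1432 RPKM (place 9 among all genes), Eucgr.L00891.1 with 1261 RPKM (place 12) and Eucgr.L02071.1 with 1210.4 RPKM (place 14). Their unique shares differed widely, at 77.0%, 11.7% and 93.6%. With under 50% unique reads, the next after Eucgr.L00891.1 were Eucgr.L02144.1 with 514 RPKM and 46.5% unique reads and Eucgr.L00023.1 with 206 RPKM and 42.0%.

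Of these abundant genes, Eucgr.L02071.1 varied most with the conditions. It had 2181, 1517 and 2259 CPM in SI-9 roots at 400 ppm, 476, 469 and 450.5 CPM in SI-12 roots at 400 ppm, 205, 200.3 and 315 CPM in SI-9 roots at 650 ppm and 452, 466 and 422 CPM in SI-12 roots at 650 ppm. The control libraries at 650 ppm had 962, 938, 961, 999 and 974 CPM, and those at 400 ppm lay between 1512 and 1782 CPM with a median of 1647 CPM. Its level was thus lower at 650 than at 400 ppm in SI-9 and in control roots without overlap, whereas the SI-12 roots at 650 and 400 ppm overlapped. In SI-9 roots the fitted log2 fold change at 650 against 400 ppm was -3.05 with a standard error of 0.147 (edgeR's quasi-likelihood test, Benjamini-Hochberg adjusted p = 4.97e-11).

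Eucgr.L03200.1 was lower in SI-12 roots at 400 ppm, with 713, 675 and 685 CPM, against 1104 to 1305 CPM and a median of 1175 CPM in control roots at 400 ppm (log2 fold change -0.79, SE 0.0871, edgeR adjusted p = 9.03e-07). Eucgr.L02144.1 was the steadiest of the 5, between 355 and 492 CPM over all libraries, with 385, 355 and 364 CPM in SI-12 roots at 400 ppm at the low end. Eucgr.L00891.1 separated the sets of libraries rather than the groups among controls. At 650 ppm its controls had 924, 1057, 599, 592 and 619.6 CPM, and at 400 ppm control libraries 1 to 3 had 585, 642 and 525 CPM while libraries 4 to 6 had 848, 902 and 961 CPM. Its higher value was therefore in control libraries 1 and 2 at 650 ppm and in libraries 4 to 6 at 400 ppm, which do not share a range of library numbers.

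The share of gene reads on unplaced genes was close to the same in nearly all libraries. It was 2.37%, 2.33% and 2.34% in SI-9 roots at 400 ppm, 2.33%, 2.34% and 2.33% in SI-12 roots at 400 ppm and 2.26%, 2.27% and 2.27% in SI-9 roots at 650 ppm. In SI-12 roots at 650 ppm it was 2.27%, 2.2% and 1.96%. Control roots had 2.41%, 2.42%, 2.38%, 2.39% and 2.38% at 650 ppm and 2.33% to 2.35% at 400 ppm. The SI-12 roots at 650 ppm were the lowest and the most scattered, and control roots at 650 ppm the highest.

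At 650 ppm the share averaged 2.27% ± 0.00558 in SI-9 roots and 2.14% ± 0.161 in SI-12 roots (SD, n = 3 each), against 2.39% ± 0.016 in control roots (SD, n = 5), and neither overlapped the controls. Both exact 2-sided permutation tests over libraries gave p = 0.0357, the smallest they can give, and 0.0833 after Benjamini-Hochberg adjustment over 14 tests. Control roots averaged 2.39% ± 0.016 at 650 ppm and 2.34% ± 0.0113 at 400 ppm (SD, n = 5 and 6), with an exact permutation p of 0.00433 and an adjusted value of 0.0606. Controls of each range of library numbers showed the same order, with 2.41% and 2.42% at 650 ppm against 2.33%, 2.35% and 2.33% at 400 ppm for numbers 1 to 12, and 2.38%, 2.39% and 2.38% against 2.35% in all 3 libraries for numbers 13 to 24. None of the 14 tests of read share and unique share passed an adjusted 0.05, and 6 had an unadjusted p under 0.05. For elevated CO2 in SI-9 and in SI-12 roots, with 3 libraries against 3, the exact permutation test cannot give a p under 0.1. Those tests could not pass whatever the values, so they decide nothing. All 14 took each library as 1 unit, although libraries fell into the sets described above, so these p-values carry the same limit.

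The low share in SI-12 roots at 650 ppm moved with a single placed gene. Eucgr.B01584.1 took 4.07%, 7.53% and 16.2% of the gene reads of these libraries, and of the remaining reads 2.37%, 2.38% and 2.34% fell on unplaced genes. These last values lie within 2.27% to 2.43%, the range over all libraries when that gene is left out. Without it, the difference from SI-12 roots at 400 ppm was 0.0232 percentage points, against -0.187 with it.

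The unique share of unplaced reads was lower in SI-12 roots at 400 ppm, with 74.6%, 76.0% and 75.0%, against 76.1% to 79.0% in control roots at 400 ppm (exact permutation p = 0.0238, the smallest possible here, adjusted 0.0833, n = 3 and 6). The controls numbered 13 to 24 like the SI-12 libraries had 76.1% to 76.8%. It was also lower at 650 ppm in SI-9 roots, at 75.7%, 75.8% and 75.4%, and in SI-12 roots, at 76.6%, 77.3% and 76.7%, against 77.3% to 78.0% in control roots (exact permutation p = 0.0357 and adjusted 0.0833 for each strain, n = 3 and 5). Within the controls at 400 ppm, libraries 1 to 3 had 79.0%, 78.3% and 77.1% and libraries 4 to 6 had 76.1%, 76.8% and 76.6%. The sets of this 1 condition did not overlap either. When the 10 most abundant unplaced genes were removed, the difference in unique share at 650 ppm turned round for SI-12 roots, to 0.426 percentage points above control roots.

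**Figure D2:**
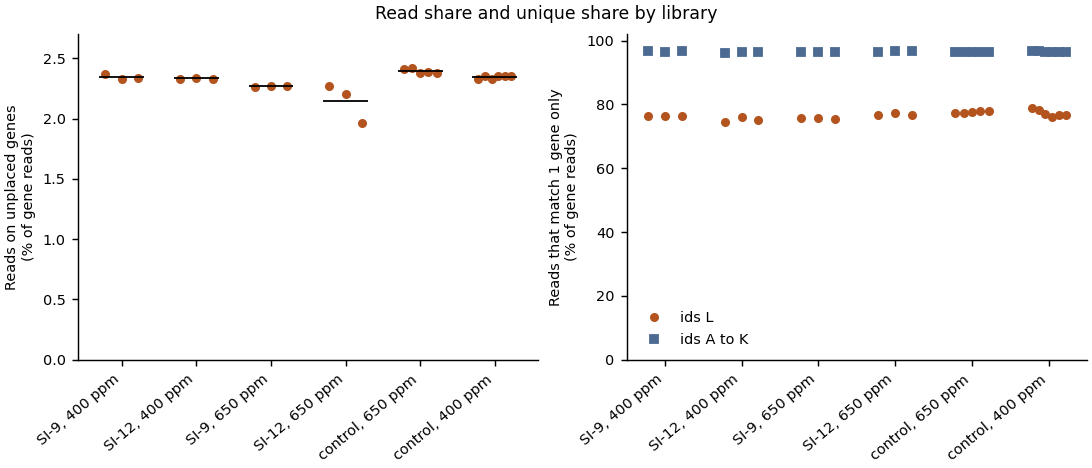
The left panel gives the percentage of gene reads on unplaced genes in each of the 23 libraries, with the group mean as a line, and the right panel the percentage of reads that match 1 gene only, for ids L (circles) and ids A to K (squares). The read share lies between 1.96% and 2.42%, with the lowest library in SI-12 roots at 650 ppm, and the unique share of ids L lies between 74.6% and 79.0%, below the 96.2% to 96.9% of ids A to K in every library.

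On-off behaviour was more frequent among unplaced genes. A gene was called on in a group where every library had at least 1 CPM, and off where no library of a group had a read. Of the 1269 unplaced genes on in at least 1 group, 56 were off in another, which is 4.41%, against 359 of 23017 genes of ids A to K, which is 1.56%. By chromosome the percentage ran from 0.813% (F) to 2.72% (C). Of the 56, 43 were off in 1 group, 9 in 2 groups and 4 in 3 groups.

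Weakly expressed and short genes were more often on-off, among unplaced genes and ids A to K alike, and the shares were therefore also taken within classes of level and length. Where the highest group mean was 1 to 3 CPM, 8.56% of unplaced genes were on-off, against 6.71% of ids A to K. The shares were 5.15% and 3.19% at 3 to 10 CPM, 2.99% and 0.678% at 10 to 30 CPM, and 1.21% and 0.0521% from 30 CPM upward, where 3 of 247 unplaced genes and 5 of 9606 genes of ids A to K were on-off. The distance between unplaced genes and ids A to K therefore widened in relative terms with level, on small counts in the top class.

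By length the shares were 11.7% of unplaced genes and 5.8% of ids A to K under 500 bases, 4.73% and 2.27% at 500 to 1000 bases, 3.22% and 1.74% at 1000 to 1500 bases, and 2.01% and 0.854% from 1500 bases upward. Among genes with at least 90% unique reads, 23 of 537 unplaced genes were on-off, or 4.28%, against 1.26% of ids A to K. The higher share of unplaced genes was thus found in every class of level, length and unique share that was counted.

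**Figure D3:**
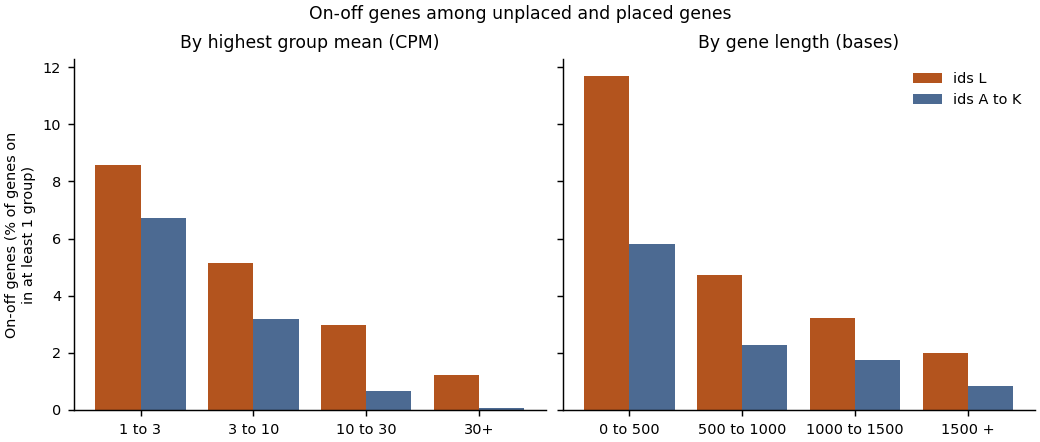
Bars give the percentage of on-off genes among genes on in at least 1 group, for ids L and ids A to K, by the highest group mean in CPM (left) and by gene length in bases (right). Unplaced genes have the higher bar in all 8 classes, from 8.56% against 6.71% at 1 to 3 CPM to 1.21% against 0.0521% from 30 CPM upward.

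On-off genes were also found between libraries of the same condition. Between control libraries 1 to 3 and 4 to 6 at 400 ppm, 18 of 1131 unplaced genes were on in every library of one set and without a read in the other, which is 1.59%, against 0.26% of ids A to K and 0 to 0.391% by chromosome. Of these 18, 6 were on in libraries 1 to 3 and 12 in libraries 4 to 6, and 9 had at least 90% unique reads. Between the sets of SI-9 roots at 650 ppm 35 unplaced genes behaved so, or 2.95%, against 0.962% of ids A to K, and between those of SI-9 roots at 400 ppm 18, or 1.52%, against 0.469%. In both groups of SI-9 roots one of the sets is 1 library (library 3 at 650 ppm, library 2 at 400 ppm), so that a gene needed 0 reads in only that library, or at least 1 CPM in it alone, to be counted. Between the sets of control roots at 650 ppm there were 0 unplaced genes and 12 of ids A to K. Roots given 1 label therefore differed in which unplaced genes had reads.

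A pair of genes chosen after their values were seen shows the size of this. Eucgr.L02796.1 had 11.3, 14.4 and 14.3 CPM in control libraries 1 to 3 at 400 ppm and 0 reads in libraries 4 to 6. Eucgr.L01415.1 had 0 reads in libraries 1 to 3 and 5.99, 7.88 and 6.75 CPM in libraries 4 to 6. The genes were high in opposite sets, with 99.4% and 96.7% unique reads.

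Off states fell on all 6 groups. The rule was not equally strict in each, since a group held 3, 5 or 6 libraries of differing depth. Each SI-12 group was also 1 set of near-identical libraries, while the other groups held more than 1 set. The counts by group therefore do not rank the groups. Among the 56 on-off genes, 18 were off in SI-12 roots at 400 ppm, 16 in SI-12 roots at 650 ppm, 10 in SI-9 roots at 650 ppm and 8 in SI-9 roots at 400 ppm, and 14 in control roots at 650 ppm and 7 in those at 400 ppm. For the 359 on-off genes of ids A to K the counts in the same order were 156, 88, 57, 60, 73 and 62, also with most in SI-12 roots at 400 ppm. The largest single class, 12 genes, was on in control roots at 650 ppm and off in SI-12 roots at 400 ppm, which is 1.33% of the unplaced genes on in these control roots, against 0.357% (71 genes) of ids A to K. On in SI-12 roots at 650 ppm and off in SI-12 roots at 400 ppm were 9 unplaced genes, or 0.899%, against 83 genes of ids A to K, or 0.402%, the largest class there. Between mycorrhizal roots and their own controls the numbers were smaller. The percentages that follow are of the genes on in the roots where the gene was on. On in SI-9 roots and off in control roots were 3 unplaced genes (0.328%) at 400 ppm, against 12 (0.0596%) of ids A to K. At 650 ppm they were 2 (0.233%), against 3 (0.0152%). On in SI-12 roots and off in control roots were 4 (0.404%) at 400 ppm, against 37 (0.182%) of ids A to K, and 4 (0.4%) at 650 ppm, against 24 (0.116%). Off in SI-12 roots and on in control roots were 7 (0.83%) at 400 ppm, against 25 (0.13%) of ids A to K. At 650 ppm they were 7 (0.78%), against 41 (0.21%). Off in SI-9 roots and on in control roots were 0 at 400 ppm, against 7 (0.0363%) of ids A to K, and 5 (0.554%) at 650 ppm, against 18 (0.0905%).

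Some on-off genes had neighbouring ids. Of the 56, 12 (21.4%) stood beside another on-off gene in the order of listed ids, in 6 pairs, against 10.3% of ids A to K and 0 to 19.4% by chromosome. On-off genes were themselves denser, at 2.28% of all unplaced ids and 1.06% of ids A to K, which by itself makes an on-off neighbour more frequent. Clustering beyond that density was not tested. Eucgr.L01414.1 and Eucgr.L01415.1 were both on in control roots at 650 ppm, with means of 2.34 and 4.9 CPM, and without a read in SI-12 roots at 650 ppm. Elsewhere they differed, with means of 0.968 and 0.0435 CPM in SI-12 roots and of 0.159 and 0.82 CPM in SI-9 roots at 400 ppm. Eucgr.L00290.1 and Eucgr.L00292.1 were both on in SI-12 roots at 400 ppm, with means of 3.95 and 5.21 CPM, and off in SI-12 roots at 650 ppm, with 61.1% and 61.5% unique reads. Other pairs went separate ways: Eucgr.L00601.1 had no read in SI-12 roots at 400 ppm, where its neighbour Eucgr.L00603.1 averaged 3.52 CPM. The files do not say which of these ids share a scaffold.

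The next question was how unplaced genes responded to the fungus and to CO2, which the design addresses with 7 comparisons. Total gene reads of all genes were tested together with edgeR's quasi-likelihood test, and a gene was called at a Benjamini-Hochberg adjusted p under 0.05. The share of tested unplaced genes that was called lay within the range of the 11 chromosomes in 6 of 7 comparisons, whereas the share with large changes lay above all of them in 7 of 7. The comparisons that use the same control libraries are not independent of each other.

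SI-9 at 400 ppm called 326 unplaced genes, 162 higher and 164 lower in SI-9 roots, which is 20.9% of those tested, against 23.1% of all tested genes. The shares by direction were 10.4% higher and 10.5% lower, against 11.3% and 11.8% of all genes. Called and at least 2-fold changed were 16.2% of unplaced genes, against 11.0% of all genes and 10.7% of ids A to K. Leaving out SI-9 library 3 reduced the 326 to 207.

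SI-12 at 400 ppm called 530 unplaced genes, 261 higher and 269 lower in SI-12 roots, or 34.0% of those tested, against 32.3% of all genes. By direction these were 16.8% and 17.3%, against 14.5% and 17.8% of all genes. At least 2-fold changed were 26.0%, against 17.1% of all genes and 16.5% of ids A to K.

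At 650 ppm, SI-9 called 543 unplaced genes, 311 higher and 232 lower in SI-9 roots, or 34.9%, against 36.5% of all genes. The directions made up 20.0% and 14.9%, against 19.3% and 17.2% of all genes. SI-12 called 580 at 650 ppm, 343 higher and 237 lower in SI-12 roots, or 37.3%, against 39.6% of all genes, with 22.0% and 15.2% by direction, against 19.9% and 19.7% of all genes. At least 2-fold changed were 27.2% for SI-9, against 17.2% of all genes and 16.6% of ids A to K, and 28.8% for SI-12, against 19.0% and 18.4%. At 650 ppm more unplaced genes were called higher than lower in the roots with either strain.

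Elevated CO2 in control roots called 680 unplaced genes, 291 higher and 389 lower at 650 ppm, or 43.7%, against 42.5% of all genes. The lower ones made up 25.0%, against 22.5% of all genes, and the higher ones 18.7%, against 20.0%. At least 2-fold changed were 32.0%, against 18.7% of all genes and 17.9% of ids A to K. Controls of 1 range of library numbers gave 559 calls, or 36.1% against 37.0% of all genes, for numbers 1 to 12, and 572, or 37.9% against 36.3%, for numbers 13 to 24.

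Elevated CO2 in SI-9 roots called 293 unplaced genes, 147 higher and 146 lower at 650 ppm, or 18.8%, against 23.9% of all genes (9.44% and 9.38% by direction, against 12% each way of all genes), and without SI-9 library 3 at 400 ppm the count was 188. This was the one comparison in which the share of unplaced genes called lay outside the range of the 11 chromosomes, 22.8% to 26.3%. Elevated CO2 in SI-12 roots called 519, with 274 higher and 245 lower, or 33.3%, against 34.1% of all genes, with 17.6% and 15.7% by direction, against 17.6% and 16.5%. At least 2-fold changed were 14.3% in SI-9 roots, against 11.3% of all genes and 11.1% of ids A to K, and 26.7% in SI-12 roots, against 18.8% and 18.3%.

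With controls of the matching range of library numbers only, SI-9 called 406 unplaced genes at 400 ppm (26.2%, against 24.4% of all genes) and 459 at 650 ppm (29.6%, against 32.3%), and SI-12 called 596 at 400 ppm (39.4%, against 35.0%) and 612 at 650 ppm (40.5%, against 41.2%). For SI-9 at 400 ppm this turned the order of the shares, which was 20.9% of unplaced genes and 23.1% of all genes with all controls. The fits on the 10 sets, given next, hold 1 replicate of each SI-12 group, so few calls there do not show unchanged genes. With the 10 sets as replicates, edgeR called 39 unplaced genes for SI-9 at 650 ppm (2.12%, against 1.93% of all genes), 12 for SI-12 at 650 ppm (0.652%, against 0.496%) and 25 for elevated CO2 in control roots (1.36%, against 1.45%). It called 0 for SI-9 and for SI-12 at 400 ppm and for elevated CO2 in SI-9 and in SI-12 roots, and 0 (0.0%) over all genes as well. In these 4 comparisons 211, 238, 240 and 227 unplaced genes had an unadjusted p under 0.05.

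DESeq2 on the same sets called 89 unplaced genes for SI-9 at 400 ppm (4.83%, against 3.91% of all genes), 106 for SI-12 at 400 ppm (5.76%, against 4.81%), 218 for SI-9 at 650 ppm (11.8%, against 12%) and 137 for SI-12 at 650 ppm (7.44%, against 8.2%). For elevated CO2 it called 204 in control roots (11.1%, against 10.4%), 107 in SI-9 roots (5.81%, against 6.82%) and 98 in SI-12 roots (5.32%, against 4.61%). The share of unplaced genes called was thus above that of all genes in 4 comparisons and below it in 3. Without SI-9 library 2 at 400 ppm, edgeR on the sets called 5 unplaced genes for CO2 in control roots (0.27%, against 0.32% of all genes), 13 for SI-9 at 650 ppm (0.703%, against 0.532%) and 2 for SI-12 at 650 ppm (0.108%, against 0.0429%). It then called 0 unplaced genes in the other comparisons, against 0.0132% of all genes for SI-12 at 400 ppm, 0.00991% for CO2 in SI-12 roots and 0.0% in the rest.

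Fold changes of unplaced genes were larger in the median than those of any chromosome. Over tested genes, the median absolute log2 fold change was 0.59 to 0.864 for unplaced genes over the 7 comparisons, against 0.334 to 0.462 for ids A to K. It lay above all 11 chromosomes in 7 of 7 comparisons, as did the share called and at least 2-fold changed. For elevated CO2 in SI-12 roots it was 0.864 for unplaced genes and 0.462 for ids A to K, and the highest chromosome, E, had 0.582. Of the called unplaced genes 73.2% to 80.2% were changed at least 2-fold, against 42.1% to 53.6% of the called genes of ids A to K.

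With the 10 sets as replicates, and so with few replicates per group, the 2-fold shares were far smaller and lay closer together. By edgeR they were 1.36% of unplaced genes for elevated CO2 in control roots, against 1.33% of all genes, 2.12% for SI-9 at 650 ppm, against 1.65%, and 0.652% for SI-12 at 650 ppm, against 0.483%, and they were 0.0% for both in the other 4 comparisons. By DESeq2 on the sets they were 10.1% for elevated CO2 in control roots, against 7.56% of all genes, 4.56% for SI-9 at 400 ppm, against 3.19%, and 5.65% for SI-12 at 400 ppm, against 4.36%. At 650 ppm DESeq2 gave 11.0% for SI-9, against 8.31%, and 6.95% for SI-12, against 6.46%, and for elevated CO2 it gave 5.16% in SI-9 roots, against 4.85%, and 5.32% in SI-12 roots, against 4.24%.

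**Figure D4:**
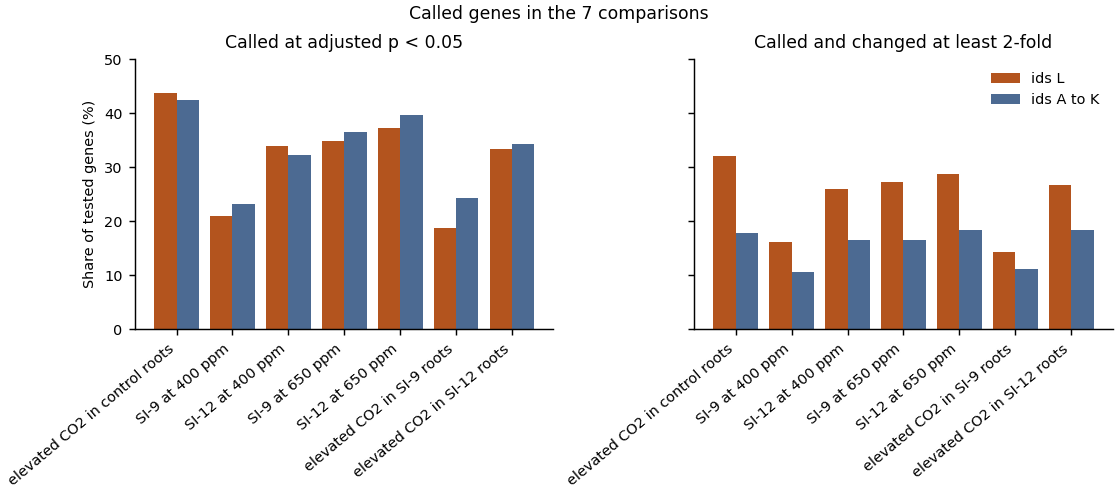
Bars give the percentage of tested genes called at an adjusted p under 0.05 (left) and called with at least a 2-fold change (right) in each of the 7 comparisons, for ids L and ids A to K, with the 23 libraries as replicates. The left bars lie close together, at 43.7% and 42.5% for elevated CO2 in control roots, whereas on the right ids L stand higher in all 7, at 32.0% and 17.9% in that comparison.

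Level and shared reads move with the size of the change, so the 2-fold share was also taken within classes of both. Among genes with at least 90% unique reads and a mean of 10 CPM or more, 7.69% to 23.1% of 143 unplaced genes were called and 2-fold changed over the 7 comparisons, against 4.38% to 9.98% of 11946 genes of ids A to K, and the unplaced share was higher in 7 of 7. At 1 to 10 CPM with at least 90% unique reads the shares were 16.9% to 38.0% and 15.8% to 27.7%, again higher for unplaced genes in 7 of 7. At 1 to 10 CPM with under 90% unique reads, where 451 unplaced genes fall, they were 14.4% to 34.4% and 18.1% to 33.4%, and the unplaced share was higher in only 2 of 7. With under 90% unique reads the unplaced share was the higher one in 7 of 7 at 10 CPM or more, at 14.3% to 30.2%, against 12.4% to 22.5%, and in 5 of 7 below 1 CPM, at 12.1% to 39.6%, against 9.17% to 31.2%. Below 1 CPM with at least 90% unique reads it was higher in 6 of 7, at 8.7% to 34.2%, against 9.65% to 28.2%.

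Large changes of unplaced genes were also found between libraries of 1 condition. Between control libraries 4 to 6 and 1 to 3 at 400 ppm, 529 of 1629 unplaced genes were called by edgeR, or 32.5%, against 28.6% of all genes, and 25.2% were at least 2-fold changed, against 14.1% of all genes and 13.4% of ids A to K. Their median absolute log2 fold change was 0.722, against 0.338 for ids A to K. Between control libraries 3 to 5 and 1 and 2 at 650 ppm, 72 were called, or 4.42%, against 9.12% of all genes, and 2.89% were 2-fold changed, against 3.23% of all genes. At 400 ppm the unplaced share of 2-fold changes between control sets thus lay inside the 14.3% to 32.0% of the 7 comparisons, and at 650 ppm it lay below it.

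Being called in several comparisons was about as frequent as elsewhere. Of the tested unplaced genes 304 (19.5%) were called in none of the 7 comparisons, against 19.6% of ids A to K, and 11 (0.706%) in all 7, against 0.914%.

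The genes with the largest changes among those with at least 90% unique reads are given next. Because no gene has a description, 2 rising and 2 falling genes are named per comparison. The adjusted p-values are edgeR's with 23 libraries, and of the 28 calls 26 were lost with the 10 sets as replicates. The exceptions were Eucgr.L02940.1 for SI-9 and Eucgr.L00951.1 for SI-12, both at 650 ppm, and these were lost too in the sets that lacked the second SI-9 library of 400 ppm. DESeq2 on the 10 sets lost 4 of the 28, for Eucgr.L03384.1, Eucgr.L00405.1, Eucgr.L03520.1 and Eucgr.L02796.1 in SI-12 roots, and no call changed direction in any alternative. The fits on sets hold few replicates, so a call lost there does not show that the gene was unchanged. Where a group had no read, the fold is a bound set by 3 reads over that group.

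In SI-9 roots at 400 ppm, Eucgr.L03708.1 rose most, with 20.7, 10.1 and 17.0 CPM, against 0 to 0.0378 CPM and a median of 0 in control roots (log2 fold change 9.5, SE 1.04, edgeR adjusted p = 1.89e-06). Eucgr.L03564.1 had 3.97, 1.95 and 2.62 CPM there and no read in the 6 control libraries, so it was at least 126-fold higher. All 3 SI-9 libraries stood above all controls for both genes. Eucgr.L02041.1 had no read in the 3 SI-9 libraries, against 0.255 to 3.4 CPM with a median of 1.55 CPM in control roots, where libraries 1 to 3 held 2.58 to 3.4 CPM and libraries 4 to 6 0.255 to 0.52 CPM. It was at least 15.9-fold lower (edgeR adjusted p = 0.00488). Eucgr.L03384.1 likewise had no read in SI-9 roots, against 0.318 to 1.72 CPM and a median of 1.28 CPM in control roots, at least 11.0-fold lower. Its call was lost with replicate number as a block. Both falls were also called in SI-12 roots at 400 ppm (edgeR adjusted p = 0.00414 and 0.00439). There Eucgr.L02041.1 had 0.0952, 0 and 0 CPM and Eucgr.L03384.1 had no read. At 650 ppm Eucgr.L03384.1 had no read in SI-9 and control roots and at most 0.253 CPM in SI-12 roots.

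In SI-12 roots at 400 ppm, Eucgr.L01870.1 had 0.952, 2.4 and 2.68 CPM, against 0 to 0.033 CPM in control roots, where 5 of 6 libraries had no read (log2 fold change 7.15, SE 0.804, edgeR adjusted p = 1.12e-06). Its levels were 0.744 to 0.883 CPM in SI-9 roots at 400 ppm, 0.798 to 2.48 CPM in SI-9 and 0.615 to 1.77 CPM in SI-12 roots at 650 ppm, against at most 0.1 CPM in any control library. It was called higher in mycorrhizal roots with each strain at each CO2 level, and no mycorrhizal library overlapped a control. Eucgr.L02630.1 had 26.3, 31.1 and 29.2 CPM in SI-12 roots at 400 ppm, against 0.0742 to 0.453 CPM and a median of 0.169 CPM in control roots (log2 fold change 7.06, SE 0.872, edgeR adjusted p = 3.56e-06). In SI-9 roots at 400 ppm it had 0, 10.3 and 0 CPM, so that only SI-9 library 2 held it.

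Eucgr.L00951.1 fell in SI-12 roots, with no read in any of the 6 SI-12 libraries. Control roots had 7.68, 9.09, 6.03, 5.87 and 6.68 CPM at 650 ppm and 8.86 to 16.9 CPM with a median of 12 CPM at 400 ppm. At 650 ppm the SI-12 level was at least 106-fold lower (edgeR adjusted p = 2.39e-09, the smallest among the 28 named calls) and at 400 ppm at least 148-fold lower (adjusted p = 2.51e-09). SI-9 roots kept it, at 9.49, 6.51 and 7.43 CPM at 400 ppm and 10.2, 7.18 and 8.28 CPM at 650 ppm. The gene thus separated every SI-12 library from every other library, with 90.5% unique reads.

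Eucgr.L00601.1 had no read in the 3 SI-12 libraries at 400 ppm, against 1.55 to 25.7 CPM with a median of 10.6 CPM in control roots at 400 ppm. In the controls the sets stood apart, with 2.54, 1.74 and 1.55 CPM in libraries 1 to 3 and 25.7, 24.2 and 18.7 CPM in libraries 4 to 6. It was at least 148-fold lower (edgeR adjusted p = 0.000656). In SI-12 roots at 650 ppm the same gene had 45.6, 43.9 and 43.1 CPM, so it was at least 527-fold higher there than in SI-12 roots at 400 ppm (adjusted p = 7.02e-05). It was the on-off gene with the highest level among those with at least 90% unique reads.

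In SI-9 roots at 650 ppm, Eucgr.L02796.1 had 13.4, 14.3 and 0.0406 CPM, against no read in the 5 control libraries, at least 319-fold higher (edgeR adjusted p = 0.00365). SI-9 library 3 was near 0 while libraries 1 and 2 were high. Eucgr.L02940.1 had 2.95, 3.87 and 11.1 CPM, against no read in control roots, at least 206-fold higher (adjusted p = 8.39e-08). Eucgr.L03302.1 had no read in SI-9 roots, against 3.29, 3.03, 3.67, 2.5 and 3.47 CPM in control roots, at least 72.3-fold lower. Eucgr.L00405.1 had none either, against 2.19, 3.03, 2.27, 1.91 and 1.94 CPM in control roots, at least 51.4-fold lower (adjusted p = 0.00878). Both were without a read in SI-9 roots at 400 ppm as well. Eucgr.L00405.1 also had no read in SI-12 roots at 400 ppm and in control libraries 1 to 3 at 400 ppm. Control libraries 4 to 6 at 400 ppm held 1.85, 2.28 and 2.15 CPM of it.

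In SI-12 roots at 650 ppm, Eucgr.L00712.1 had 21.3, 17.5 and 17.3 CPM, against no read in the 5 control libraries, at least 643-fold higher (edgeR adjusted p = 1.99e-05). Eucgr.L00717.1 had 5.81, 6.15 and 4.98 CPM, against no read, at least 195-fold higher (adjusted p = 0.000131). These genes, with close id numbers, were without a read in the same 6 libraries. In SI-9 roots at 650 ppm, library 3 had no read of either, while libraries 1 and 2 had 11.0 and 8.34 CPM of Eucgr.L00712.1 and 4.32 and 3.91 CPM of Eucgr.L00717.1. Eucgr.L01415.1 fell in SI-12 roots, with no read, against 6.25, 3.14, 4.03, 5.82 and 5.23 CPM in control roots, at least 73.2-fold lower (adjusted p = 0.00724). It was called lower in SI-9 roots at 650 ppm as well, with 0, 0.0399 and 0 CPM (log2 fold change -7.83, SE 2.1, edgeR adjusted p = 0.0067).

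In control roots at 650 ppm, Eucgr.L03564.1 had 3.38, 4.33, 6.0, 6.2 and 4.63 CPM, against no read in the 6 control libraries at 400 ppm, at least 216-fold higher (edgeR adjusted p = 1.61e-07). Eucgr.L03302.1, with the values given above, was at least 141-fold higher, since the 400 ppm controls had no read of it (adjusted p = 7.52e-06). Both stood above 0 in all 5 libraries at 650 ppm and at 0 in both sets of controls at 400 ppm. Eucgr.L00712.1 and Eucgr.L00717.1 had no read at 650 ppm, against 2.68 to 15.2 CPM (median 8.64 CPM) and 0.816 to 8.22 CPM (median 3.16 CPM) at 400 ppm, and were at least 299-fold and at least 125-fold lower. In both, control libraries 1 to 3 at 400 ppm were the high ones, with 14, 13.9 and 15.2 CPM of Eucgr.L00712.1, against 2.68, 3.37 and 2.89 CPM in libraries 4 to 6.

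In SI-9 roots, Eucgr.L01065.1 had 0.164, 0.599 and 5.04 CPM at 650 ppm, against no read at 400 ppm, at least 18.7-fold higher (edgeR adjusted p = 0.00463). Eucgr.L02041.1 had 0.601, 0.479 and 3.9 CPM, against no read, at least 16.1-fold higher. In both genes SI-9 library 3 held most of the level at 650 ppm. Eucgr.L00715.1 had no read at 650 ppm, against 2.43, 2.7 and 3.57 CPM at 400 ppm, at least 65.7-fold lower (adjusted p = 0.000811). Eucgr.L01297.1 had no read either, against 0.662, 0.465 and 2.99 CPM, at least 31.1-fold lower (adjusted p = 9.72e-05). In the other roots Eucgr.L01297.1 was also lower at 650 ppm, with 0.101, 0 and 0 CPM in SI-12 roots and 1.08 to 2.09 CPM in control roots at 650 ppm, against 1.14 to 2.2 CPM in SI-12 roots and 2.23 to 9.57 CPM in control roots at 400 ppm.

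In SI-12 roots, Eucgr.L03520.1 had 3.89, 4.23 and 3.32 CPM at 650 ppm, against no read at 400 ppm, at least 45.5-fold higher (edgeR adjusted p = 0.0102). Eucgr.L01844.1 had 0.152, 0.154 and 0 CPM at 650 ppm, against 34.0, 34.7 and 27.0 CPM at 400 ppm (log2 fold change -8.08, SE 1.21, adjusted p = 3.46e-05). Eucgr.L02796.1 had 0, 0 and 0.166 CPM at 650 ppm, against 13.6, 12.8 and 16.4 CPM at 400 ppm (log2 fold change -8.09, SE 2.48, adjusted p = 0.0182). The call of Eucgr.L02796.1 did not pass after removal of any single SI-12 library from the 650 ppm group. For Eucgr.L01844.1, the third SI-9 library at 650 ppm had 0.122 CPM, against 30.4 and 31.7 CPM in the other SI-9 libraries of that group.

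**Figure D5:**
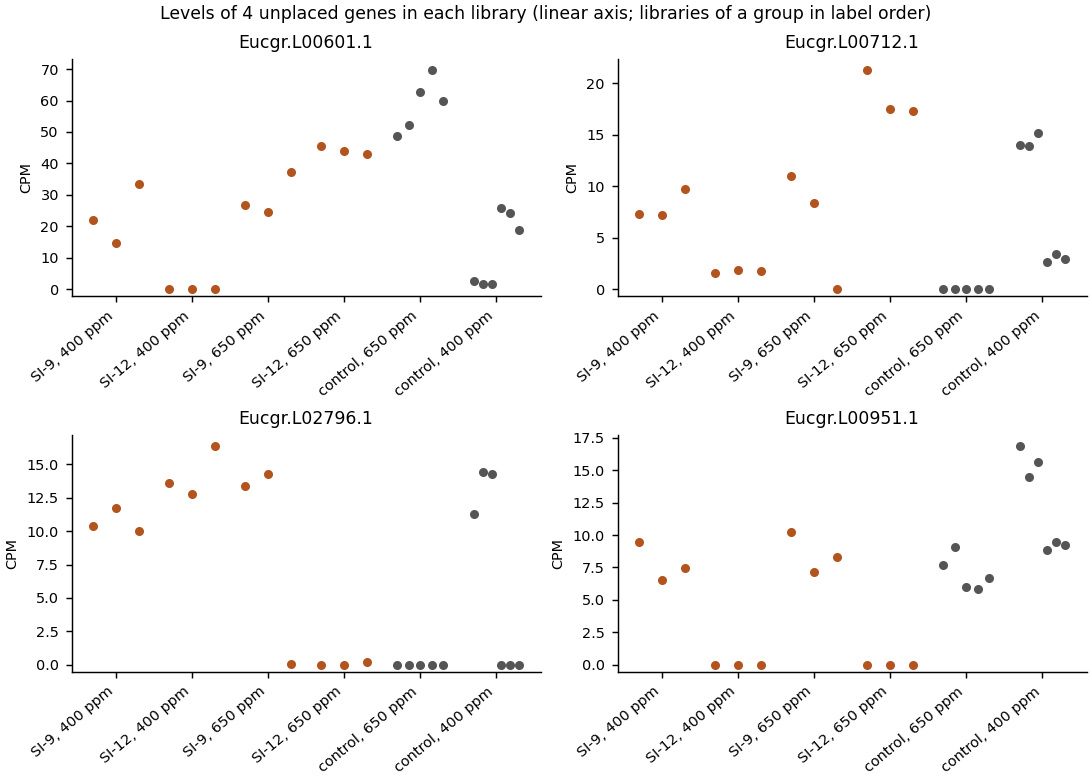
Each point is the CPM (linear axis) of 1 library, by group (orange for mycorrhizal, grey for control roots), for the 3 on-off genes with the highest levels among those with at least 90% unique reads and for Eucgr.L00951.1, with the libraries of a group in the order of their labels. Eucgr.L00951.1 lies at 0 in all 6 SI-12 libraries and at 5.87 to 16.9 CPM in all others, whereas Eucgr.L02796.1 lies at 11.3 to 14.4 CPM in control libraries 1 to 3 at 400 ppm and at 0 in libraries 4 to 6.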

How the data were processed

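For each of 23 root libraries the deposited table lists, per the file headers, 36376 genes with a length, counts of reads unique to the gene and in total, and an RPKM value. The RPKM that the authors deposited follows from total reads, length and the gene reads of the library within 1% plus 0.01 for all genes. The RPKM used here was recomputed from total reads with TMM-scaled library sizes. Headers of 2 control tables name trimmed read pairs. Not given in the sources used here are the aligner, the genome build, the strand setting and the treatment of shared reads.

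Members were taken by id. The members, lists, tests and the rule for named genes were chosen with earlier results of these data known. Total counts entered edgeR 4.0.16's quasi-likelihood test (R 4.3.3, limma 3.58.1), 2-sided, with TMM factors and filterByExpr by group, in 1 fit over 27386 genes with 6 group means and 17 residual degrees of freedom, adjusted over all genes by Benjamini-Hochberg at 0.05. Read shares were compared by exact permutation of libraries. The test was run first on simulated data. A standard error is the fold change over the square root of the F statistic. Depth ran from 4497662 to 30210474 gene reads, and bounds from 3 reads cover counting error only. The rule names, per comparison, the 2 largest rises and 2 largest falls among called genes with at least 90% unique reads, no overlap between groups and at least 1 CPM in the higher group; it also names the most abundant and the most abundant on-off genes. Alternatives were DESeq2 1.42.0, other scaling, filters and groups in the fit, unique reads, replicate number as a block, controls of 1 number range, sets as replicates and each library left out. Sequences and positions of these genes were not used here. Figures were drawn with matplotlib 3.10.9.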

Additional observations from a re-analysis of the deposited data

Results flagged for a closer look

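In 3 of 46 groups of at least 4 libraries, examined for the named genes, the read share and the unique share, 1 library stood apart from the rest. The rule sets the gap to the nearest library against the range. Any read in 1 library with 0 in the others is therefore flagged, and no rate by chance is given for such counts. Eucgr.L01870.1 had 0.1 CPM in control library 3 at 650 ppm and 0.033 CPM in control library 1 at 400 ppm, with no read in the other controls. Eucgr.L00715.1 had 0.223 CPM in control library 6 at 400 ppm and at most 0.0756 CPM in the others. All 3 values rest on 3 reads or fewer.

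Differences between 650 and 400 ppm had opposite signs in 2 kinds of roots for 12 results. The rule asked only that the libraries at 650 and 400 ppm did not overlap in either kind. Some of these differences were not called by themselves. They are those of Eucgr.L00717.1 in SI-12 roots (edgeR adjusted p = 0.0749), Eucgr.L02630.1 in control roots (0.114) and Eucgr.L02144.1 in SI-12 roots (0.191). For unplaced genes the difference of the CO2 effects was tested as an interaction in the same edgeR fit, adjusted over all genes. Eucgr.L00712.1 differed at 650 against 400 ppm by 16.9 CPM in SI-12 roots and by -8.67 CPM in control roots (interaction adjusted p = 5.65e-05), and Eucgr.L00717.1 by 4.76 and -3.63 CPM (adjusted p = 0.00031). Eucgr.L02041.1 differed by 1.66 CPM in SI-9 and by 1.22 CPM in SI-12 roots, against -1.61 CPM in control roots (adjusted p = 9.75e-05 and 0.000136). Eucgr.L02630.1 differed by -28.6 CPM in SI-12 roots and by 0.505 CPM in control roots (adjusted p = 0.00015). Eucgr.L02940.1 differed by 4.59 CPM in SI-9 roots, by -1.52 CPM in SI-12 roots and by -1.54 CPM in control roots (adjusted p = 2.61e-06 for SI-9 against control roots and 5.16e-05 for SI-12 against SI-9 roots).

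Among abundant genes with many shared reads, Eucgr.L02144.1 differed by 27.9 CPM in SI-12 roots and by -55.6 CPM in SI-9 roots (edgeR interaction adjusted p = 0.012). Eucgr.L00023.1 differed by 99.6 CPM in SI-12 roots and by -79.2 CPM in control roots (adjusted p = 0.000753). The interactions were not computed with the sets as replicates.

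The share of gene reads on unplaced genes differed at 650 against 400 ppm by -0.0835 percentage points in SI-9 roots and by -0.187 in SI-12 roots, against 0.0544 in control roots. The unique share of unplaced reads differed by 1.64 percentage points in SI-12 roots and by -0.733 in SI-9 roots. None of these differences in share passed an adjusted 0.05 by itself. Those in SI-9 and SI-12 roots could not, since 3 libraries against 3 give an exact permutation p of at least 0.1. The difference between the kinds of roots was not tested.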

How the results depend on the processing

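With each of the 10 sets as 1 replicate, edgeR called 25 unplaced genes for CO2 in control roots, 39 for SI-9 and 12 for SI-12 at 650 ppm and 0 in the other 4 comparisons (211 to 240 at an unadjusted p under 0.05), and DESeq2 on the sets called 204, 218 and 137 and, in the others, 89 (SI-9 at 400 ppm), 106 (SI-12 at 400 ppm), 107 (CO2 in SI-9 roots) and 98 (CO2 in SI-12 roots). With SI-9 library 2 at 400 ppm removed, an alternative chosen after seeing the data, the sets gave 5, 13 and 2 and again 0 elsewhere (171 to 226 unadjusted). Fits of only the groups compared gave 216 calls for SI-9 at 400 ppm and 134 for CO2 in SI-9 roots. Other scaling, filters, DESeq2, unique reads and controls of 1 number range left every count within 1.5 times, except the fits and sets just given.

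Leaving out 1 library gave 589 to 666 calls for CO2 in control roots, 207 to 323 for SI-9 and 391 to 519 for SI-12 at 400 ppm, 437 to 560 for SI-9 and 458 to 543 for SI-12 at 650 ppm, 188 to 372 for CO2 in SI-9 and 416 to 446 for CO2 in SI-12 roots. In 55 of these 57 fits the count stayed within 1.5 times; the exceptions were both without SI-9 library 3 at 400 ppm. Same-numbered libraries of different groups showed correlations of deviations of -0.129 to 0.138, with 3 of 47 pairs over 0.1, so no pairing by number was seen. The sets within a group also enter these deviations, so a weak pairing is not excluded. With the replicate block the counts were 639 for CO2 in control roots, 290 and 480 for SI-9 and SI-12 at 400 ppm, 510 and 518 at 650 ppm, and 278 and 509 for CO2 in SI-9 and SI-12 roots, and 1 named call was lost. Among 127 combinations of comparison and setting with any 2-fold call, the 2-fold share of unplaced genes exceeded that of ids A to K in 124. The other 3 were edgeR fits on the sets without SI-9 library 2 at 400 ppm. The 127 combinations reuse the same 23 libraries and are not independent of each other. Small excesses count too, such as 1.36% against 1.33% for CO2 in control roots by edgeR on the sets.

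Without the 10 most abundant unplaced genes, differences in read share turned to -0.0933 percentage points for SI-9 at 400 ppm, 0.119 for SI-12 at 400 ppm and 0.114 for CO2 in SI-9 roots, and in unique share to 0.589 for SI-9 at 400 ppm and 0.426 for SI-12 at 650 ppm. For SI-9 at 400 ppm the read share also turned with unique reads (-0.0155) and without SI-9 library 1 (-0.00236 to 0.0184 over libraries left out), and for CO2 in SI-12 roots without Eucgr.B01584.1 (0.0232). None of these passed an adjusted 0.05, which the CO2 differences in SI-9 and SI-12 roots could not do with 3 libraries against 3. The cause of these turns was not tested.

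The ratio of median levels, unplaced over A to K, was 0.269 over all genes, 0.429 over tested genes and 0.218 with unique reads, and the ratio of shares at 1 CPM or more in all 23 libraries was 0.475. The 56 on-off genes became 15 with at least 5 CPM in every library, 85 with under 3 reads as off, 23 with at least 90% unique reads and 81 without SI-9 library 2 at 400 ppm. The separate count between the ambient control sets was 18, of which 8 are among the 56. Depth limits low levels, since 3 reads correspond to up to 0.662 CPM in the shallowest library.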
